A study of Mus musculus with 10 samples.

Results

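DGCR8 and DDX6 act at different steps of miRNA silencing. DGCR8 partners the nuclease Drosha, and most miRNAs are not cut out of their primary transcripts without it. DDX6 is an RNA helicase of processing bodies that is recruited by the miRNA effector complex through the CCR4-NOT deadenylase complex and that takes part in translational repression and decapping. Genes that move the same way without either protein are described here. All 7 knockout libraries, 3 of DGCR8 KO and 4 of DDX6 KO, were set against 3 wild-type (WT) libraries, 10 of the 10 samples in the series, and both genotypes were given equal weight. The series asks how mRNA levels change when miRNAs, or a helicase that acts downstream of them, are removed from mouse embryonic stem cells.

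All cells were mouse embryonic stem cells grown with serum, LIF and 2i, which is the MEK inhibitor PD0325901 together with CHIR99021, an inhibitor of GSK3. WT cells carried no knockout. DDX6 KO came from 2 CRISPR clones, each with libraries numbered 1 and 2. DGCR8 KO was a single line made earlier, although the sample labels give CRISPR for knockout cells in general. Nothing states that libraries of a group came from separate cultures, so p-values measure only the spread between these samples, and what is particular to the DGCR8 KO line cannot be told apart from its genotype. RNA was sequenced at the 3′ ends of transcripts (QuantSeq), and the deposited values are counts per gene. Levels are given as CPM, in which 1 CPM is 1 count in a library of 1000000 counts, with library sizes adjusted by TMM, a trimmed mean of log ratios between libraries. Values of DDX6 KO are listed with both libraries of clone 1 first.

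Counts over genes totalled 2131156 to 4745083 per library. Chromosomes 6 and 8 were left out with their 5589 genes. They held 11.4% to 11.5% of the counts in WT, 10.1% to 10.6% in DGCR8 KO and 13.5% to 14.1% in DDX6 KO. Across the other 18 chromosomes tested, the median log2 change of a library from the WT mean lay between -0.06 and 0.17. After that removal, 10726 of the 51467 genes in the table reached 3 CPM in at least 3 libraries and were tested. Spearman correlations across these genes were 0.973 to 0.984 within groups and 0.917 to 0.952 between groups. A count of 3, taken as the floor, was worth 0.762 to 1.63 CPM, so levels near it rest on a few reads.

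The targeted genes were examined first. Dgcr8 was at 57.2, 59.1 and 75.0 CPM in WT, 11.3, 10.2 and 17.3 CPM in DGCR8 KO and 54.6, 40.4, 59.99 and 59.0 CPM in DDX6 KO. Its 3′-end signal was thus lower in every DGCR8 KO library than in any other library. Ddx6 was at 572, 595 and 668 CPM in WT, 584, 542 and 546 CPM in DGCR8 KO and 173, 155, 45.0 and 29.6 CPM in DDX6 KO. Its signal was low in all 4 DDX6 KO libraries, with more left in clone 1 than in clone 2. A 3′ tag does not report on a deletion upstream of it, so signal that remained is not a measure of protein.

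A gene was called at an adjusted p-value under 0.05 together with a log2 fold change beyond 1 in size, in the mean of both knockouts against WT. By this rule 623 genes (5.81%) were higher in the knockouts and 358 (3.34%) were lower. With the adjusted p-value alone, 1733 genes (16.2%) were higher and 1703 (15.9%) were lower. Separately, a gene was counted as separated where all 7 knockout libraries lay above the highest WT library, or all 7 below the lowest. This held for 893 genes (8.33%) above and 849 (7.92%) below. The split of separated genes depended on the scaling, since scaling by total counts gave 1140 above and 631 below. That scaling moved the median log2 change of all genes from 0.01 to 0.08.

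Genes that were both called and separated in the same direction are referred to as shared. There were 373 shared higher genes (3.48%) and 194 shared lower genes (1.81%). Protein-coding genes made up 96.5% of the shared higher set, 80.9% of the shared lower set and 93.6% of all genes tested. The median level was 19.6 CPM for shared higher genes and 8.68 CPM for shared lower genes, against 31.7 CPM over all genes tested. The median log2 change of shared higher genes was 1.67 in DGCR8 KO and 1.39 in DDX6 KO. In the shared lower genes the medians were -1.57 and -1.31. Both genotypes went beyond 1 on the log2 scale in 241 of the 373 shared higher genes and in 111 of the 194 shared lower genes. At the edge of the fold threshold, A430033K04Rik had a pooled log2 change of 1.0002 with an adjusted p of 0.0346 and was just inside, and Mcts2 at -0.999 was just outside. Another 250 genes called higher and 164 called lower were not shared because at least 1 knockout library overlapped WT.

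**Figure D1:**
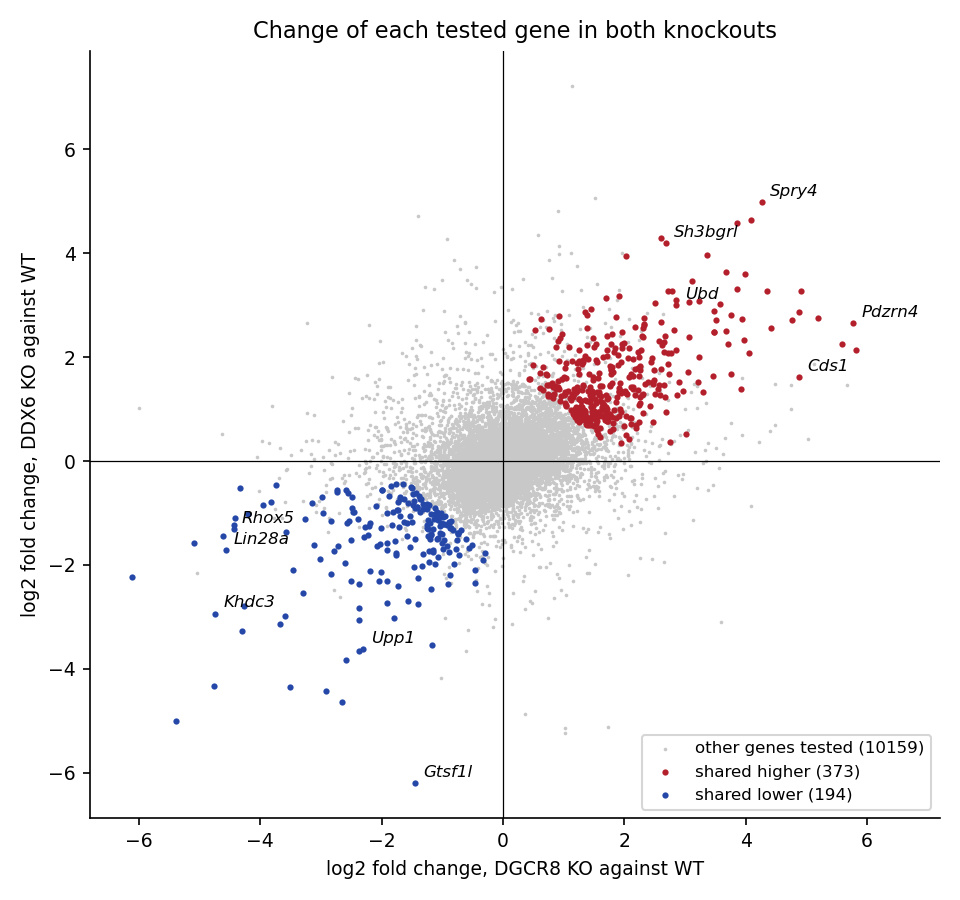
Log2 fold change of each of the 10726 tested genes in DGCR8 KO (horizontal) and in DDX6 KO (vertical), both against the same 3 WT libraries. Red points are the 373 shared higher genes and blue points the 194 shared lower genes, which by construction fall in the upper right and lower left, and Gtsf1l and Cds1 lie far from the diagonal.

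Shared membership does not mean equal change. The knockouts differed from each other, at an adjusted p-value under 0.05 alone, in 262 of the 567 shared genes. Over all genes tested this difference passed in 4398, or 41.0%, against 50.7% of shared higher and 37.6% of shared lower genes. Of the 4398, 2336 were higher in DGCR8 KO and 2062 were higher in DDX6 KO. Among shared higher genes 143 were higher in DGCR8 KO than in DDX6 KO and 46 the reverse. Among shared lower genes 50 were lower in DGCR8 KO than in DDX6 KO and 23 were lower in DDX6 KO.

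The genes described first come from the 15 largest increases and 15 largest decreases among shared genes that averaged 10 CPM or more over the libraries. The increases included signalling inhibitors, surface and matrix proteins, and transcriptional regulators. Spry4, a feedback inhibitor of receptor tyrosine kinase signalling to ERK, was at 2.72, 0.386 and 1.02 CPM in WT, 31.2, 13.2 and 26.9 CPM in DGCR8 KO and 36.0, 26.0, 55.9 and 35.8 CPM in DDX6 KO. The pooled log2 change was 4.63 ± 0.76 (SE), adjusted p = 0.000186. Pdzrn4, which encodes a protein with PDZ and RING domains, was at 2.72, 0.386 and 0.762 CPM in WT, 56.6, 66.9 and 48.7 CPM in DGCR8 KO and 6.35, 7.61, 9.32 and 4.19 CPM in DDX6 KO. The rise was present in both genotypes and was larger in DGCR8 KO, with log2 changes of 5.77 in DGCR8 KO and 2.66 in DDX6 KO. Anxa3, a calcium-dependent phospholipid-binding protein, was at 1.63, 0.386 and 2.54 CPM in WT, 77.6, 42.3 and 49.2 CPM in DGCR8 KO and 13.5, 5.61, 14.2 and 9.35 CPM in DDX6 KO (pooled log2 change 3.97 ± 0.69 (SE), adjusted p = 0.00028). Fras1, an extracellular matrix protein of basement membranes, was at 1.09, 0.386 and 0.508 CPM in WT, 58.0, 27.2 and 27.8 CPM in DGCR8 KO and 6.35, 1.602, 4.05 and 3.22 CPM in DDX6 KO. Its WT libraries held at most 2 counts each. Against the highest floor among WT libraries, 1.63 CPM, the mean was at least 23.1-fold higher in DGCR8 KO and at least 2.33-fold higher in DDX6 KO. Fras1 and Anxa3 are neighbours among tested genes on chromosome 5.

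Ccdc141, a coiled-coil protein, was at 12.5, 13.5 and 8.39 CPM in WT, 146, 166 and 128 CPM in DGCR8 KO and 76.2, 80.1, 74.2 and 73.2 CPM in DDX6 KO (pooled log2 change 3.28 ± 0.21 (SE), adjusted p = 3.58e-09). The 4 DDX6 KO libraries lay close together, between WT and DGCR8 KO. Adam23, a member of the ADAM family that mediates cell adhesion, was at 26.1, 19.3 and 27.2 CPM in WT, 392, 249 and 326 CPM in DGCR8 KO and 111, 109, 129 and 113 CPM in DDX6 KO (2.98 ± 0.19 (SE), adjusted p = 4.15e-09). Atxn1, the transcriptional corepressor ataxin 1, was at 14.7, 11.6 and 6.86 CPM in WT, 195, 145 and 153 CPM in DGCR8 KO and 47.8, 44.8, 45.8 and 31.6 CPM in DDX6 KO (3.07 ± 0.26 (SE), adjusted p = 1.55e-07). Both genes showed the same order, WT below DDX6 KO below DGCR8 KO, with no overlap of libraries. Ubd, an interferon-inducible ubiquitin-like modifier known as FAT10, was at 34.3, 29.4 and 24.7 CPM in WT, 182, 199.999 and 244 CPM in DGCR8 KO and 245, 207, 242 and 220.4 CPM in DDX6 KO (2.93 ± 0.15 (SE), adjusted p = 5.77e-10). The log2 difference between DGCR8 KO and DDX6 KO was -0.14 ± 0.12, adjusted p = 0.335 for Ubd, and their libraries overlapped. Sh3bgrl, a small protein of the thioredoxin-like fold, was at 1.09, 2.70 and 1.27 CPM in WT, 7.89, 13.6 and 13.2 CPM in DGCR8 KO and 37.2, 36.8, 30.4 and 25.5 CPM in DDX6 KO and was higher in DDX6 KO than in DGCR8 KO.

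Of the remaining members of this group, Foxd1 (a forkhead transcription factor) ranged from 0.544 to 6.35 CPM in WT and from 18.6 to 67.6 CPM in the knockouts. Cds1, which makes CDP-diacylglycerol for phosphatidylinositol synthesis, reached at most 1.93 CPM in WT, 3.20 to 8.38 CPM in DDX6 KO and 49.1 to 59.2 CPM in DGCR8 KO. The gap between the genotypes was thus wider than that between DDX6 KO and WT. Slc39a14, an importer of zinc and other metals, had a knockout minimum of 11.4 CPM against a WT maximum of 2.80 CPM. For Msln (mesothelin, a surface protein) these were 11.4 and 3.30 CPM, and for Krt17 (a type I keratin) 10.2 and 3.09 CPM. Their pooled log2 changes were 3.18, 3.15 and 2.996 in that order, and 3.34 for Foxd1 and 3.25 for Cds1.

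The decreases included regulators of germ cells and early embryos, metabolic enzymes and transcription factors. Lin28a, an RNA-binding protein that blocks let-7 maturation, was at 69.1, 52.9 and 85.4 CPM in WT, 1.72, 2.27 and 5.92 CPM in DGCR8 KO and 21.2, 20.8, 15.4 and 26.7 CPM in DDX6 KO. It fell in both genotypes, further in DGCR8 KO, and the pooled log2 change was -3.14 ± 0.27 (SE), adjusted p = 1.83e-07. Khdc3, a KH-domain protein of the maternal complex of eggs and of embryonic stem cells, was at 27.8, 86.9 and 55.4 CPM in WT, 0.343, 6.05 and 2.73 CPM in DGCR8 KO and 5.92, 12.4, 6.08 and 5.16 CPM in DDX6 KO (-3.84 ± 0.48 (SE), adjusted p = 1.18e-05). Gtsf1l, a paralogue of a piRNA-pathway factor of germ cells, was at 26.7, 21.2 and 25.4 CPM in WT, 9.95, 7.94 and 8.20 CPM in DGCR8 KO and 0.423, 0, 0 and 0.322 CPM in DDX6 KO. It was all but absent from DDX6 KO and retained in part in DGCR8 KO, with log2 changes of -1.46 in DGCR8 KO and -6.19 in DDX6 KO. Rhox5, an X-linked homeobox gene, was at 50.1, 40.9 and 39.6 CPM in WT, 1.37, 1.89 and 2.28 CPM in DGCR8 KO and 36.4, 34.0, 6.49 and 11.6 CPM in DDX6 KO. The clones of DDX6 KO lay apart here, with clone 1 only just below the lowest WT library, a gap that was not tested.

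Upp1, uridine phosphorylase, was the most abundant gene of the group, at 544, 647 and 766 CPM in WT, 140.4, 97.5 and 171 CPM in DGCR8 KO and 43.6, 84.1, 32.8 and 62.5 CPM in DDX6 KO (-2.96 ± 0.17 (SE), adjusted p = 1.55e-09). Acaa2, a mitochondrial thiolase of fatty acid oxidation, was at 103, 84.2 and 98.1 CPM in WT, 18.5, 15.1 and 21.4 CPM in DGCR8 KO and 8.04, 13.6, 10.5 and 13.2 CPM in DDX6 KO (-2.71 ± 0.15 (SE), adjusted p = 9.10e-10). Gldc, the decarboxylase of the glycine cleavage system, was at 57.2, 63.7 and 44.5 CPM in WT, 14.4, 19.3 and 7.29 CPM in DGCR8 KO and 15.7, 10.8, 10.1 and 12.2 CPM in DDX6 KO (-2.07 ± 0.20 (SE), adjusted p = 7.35e-07). Separation was required of all 3 enzymes as shared genes, and its margins were wide in both genotypes. Klhl22, an adaptor of CUL3 ubiquitin ligases, was at 57.7, 58.7 and 82.6 CPM in WT, 18.5, 10.6 and 10.02 CPM in DGCR8 KO and 11.4, 16.02, 9.73 and 15.1 CPM in DDX6 KO, and its log2 changes were -2.37 in DGCR8 KO and -2.36 in DDX6 KO. Notch3, a Notch receptor, was at 25.6, 18.5 and 24.7 CPM in WT, 8.92, 4.54 and 4.55 CPM in DGCR8 KO and 6.35, 4.80, 5.68 and 2.58 CPM in DDX6 KO (-2.11 ± 0.25 (SE), adjusted p = 8.29e-06).

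Among the other decreases, Spic (an ETS factor) ranged from 32.0 to 47.4 CPM in WT and from 2.40 to 12.4 CPM in the knockouts. Crxos, a homeobox gene, lay at 33.0 to 41.3 CPM and 2.27 to 14.01 CPM. The corresponding ranges were 26.4 to 46.3 and 2.90 to 7.29 CPM for Cidea, a lipid droplet protein, and 22.4 to 33.8 and 0.967 to 13.7 CPM for Rims1, a presynaptic scaffold. Neither overlapped. Olig1, a basic helix-loop-helix factor, was at 43.0 to 52.9 CPM in WT and at 2.54 to 14.4 CPM in the knockouts, and Osr2, a zinc finger factor, at 22.6 to 39.7 and 4.40 to 11.3 CPM. In bulk samples a lower share of cells with a transcript and less of it per cell cannot be told apart, and this holds for every gene given here.

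**Figure D2:**
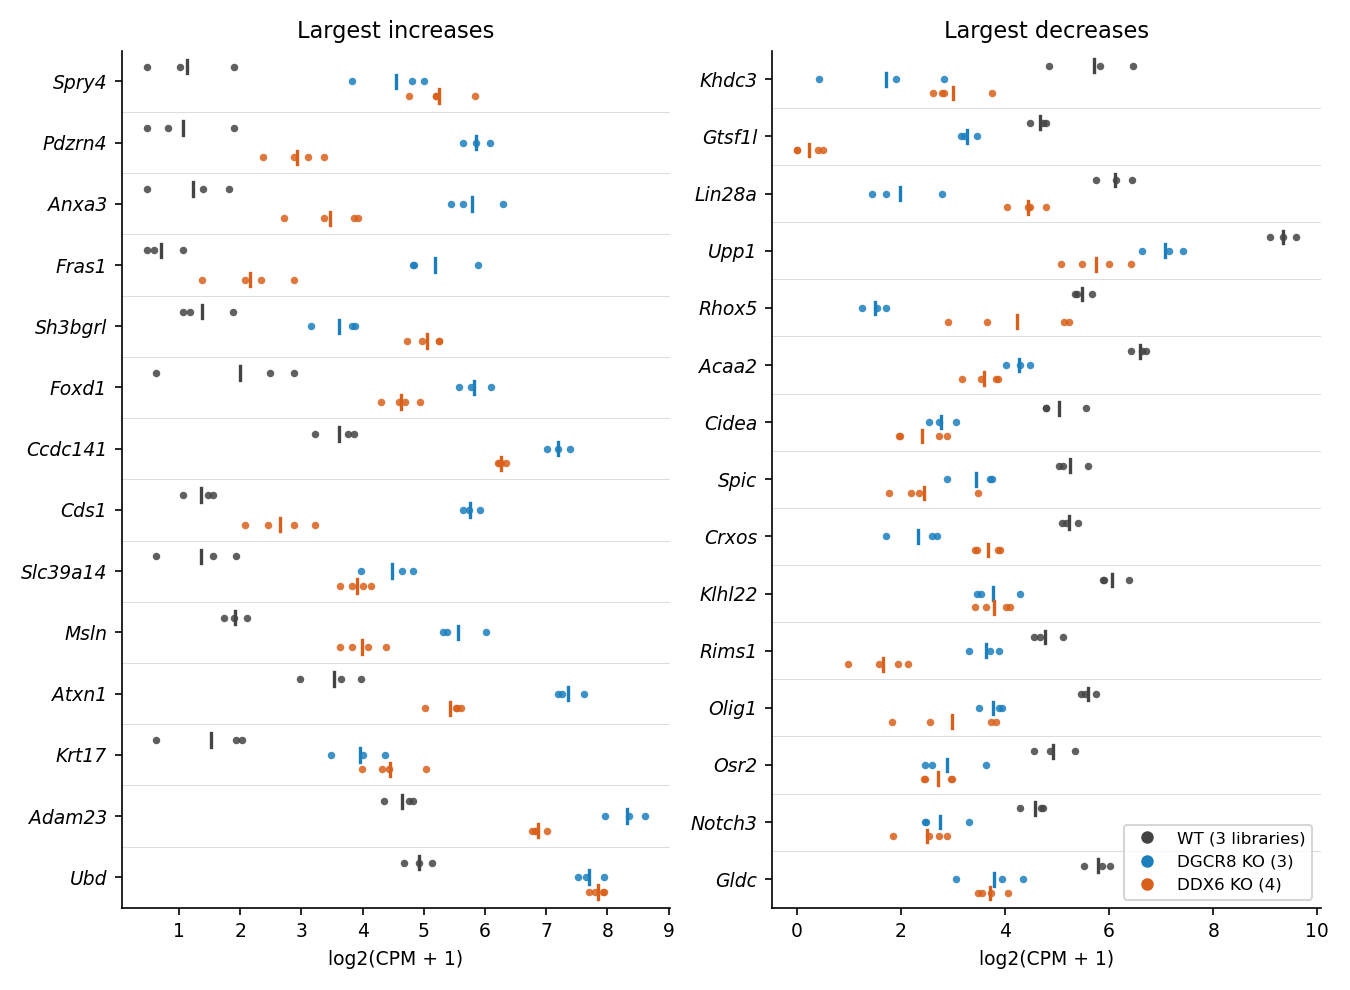
Level of the shared genes with the largest increases (left, 14 genes) and the largest decreases (right, 15 genes) in each library, as log2(CPM + 1). Each point is a library, vertical ticks are group means, and no knockout point crosses the WT range because separation was required, as for Ubd (WT at most 34.3 CPM, knockouts at least 182 CPM).

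To describe functions, genes were counted in 61 lists, of which 996 members were tested. The lists were drawn from textbook knowledge but chosen with earlier results of these data known, so an excess over background is a description only. They held 45 of the shared higher and 21 of the shared lower genes, so most shared genes fall outside them. No list was tested as a set, and each count is to be read against the background percentages above.

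Feedback regulators and immediate targets of ERK signalling had 15 tested members. Of these 7 were called higher and 1 lower, 7 were separated above WT (46.7%) and 1 below, and the median log2 change was 0.85 against 0.01 over all genes. Besides Spry4, Spred1, another inhibitor of the Ras to ERK step, rose, at 56.1, 42.1 and 49.1 CPM in WT, 129, 132 and 139.8 CPM in DGCR8 KO and 131, 117, 134 and 116 CPM in DDX6 KO (1.41 ± 0.12 (SE), adjusted p = 1.48e-07). Egr1, an immediate early transcription factor, was at 20.7, 9.66 and 11.9 CPM in WT, 282, 76.0 and 52.8 CPM in DGCR8 KO and 218, 27.2, 169.8 and 23.5 CPM in DDX6 KO (2.72 ± 0.91 (SE), adjusted p = 0.0286). Each of its knockout libraries exceeded WT, but the spread within groups was wide, and in WT, DGCR8 KO and both clones the library numbered 1 was the highest. Phlda1 (1.38, adjusted p = 0.00148) and the ETS factor Etv1 (1.15, adjusted p = 0.00061) were shared higher as well. Etv4, a related ETS factor, was called without being separated, at 21.2, 25.5 and 28.7 CPM in WT, 28.1, 28.4 and 71.0 CPM in DGCR8 KO and 97.3, 102, 110.3 and 104 CPM in DDX6 KO. Fos, at 83.6 to 297 CPM in WT and 159 to 661 CPM in the knockouts, was also called higher while overlapping. Members did not move as a block, since Etv5, the third ETS factor of this kind, fell, at 152, 117 and 174 CPM in WT, 105, 64.3 and 93.4 CPM in DGCR8 KO and 39.8, 40.8, 45.8 and 55.8 CPM in DDX6 KO (-1.23 ± 0.15 (SE), adjusted p = 9.52e-06), and Spry2 had a log2 change of -0.72, adjusted p = 0.000388. The median change of the list per library was -0.21 to 0.35 in WT, 0.37 to 1.26 in DGCR8 KO and 0.43 to 1.06 in DDX6 KO, and the number 1 libraries were the highest in each group and clone there too. The call of Egr1 was lost when any 1 WT library was left out (log2 change 2.54 to 2.94). Fos lay at the fold threshold and lost its call under 16 of 26 alternatives, among them edgeR, DESeq2 and leaving out WT replicate 2 or 3, DGCR8 KO replicate 1 or the first library of either DDX6 clone (0.51 to 0.99 without 1 of these libraries).

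Genes of double-stranded RNA sensing and the interferon response had 19 tested members, of which 7 were called higher and 0 lower, 4 (21.1%) were separated above WT and 3 were shared. Oasl1, an interferon-induced oligoadenylate synthetase-like protein, was at 0, 0 and 1.02 CPM in WT, 6.52, 4.91 and 5.01 CPM in DGCR8 KO and 6.77, 10.8, 10.1 and 9.35 CPM in DDX6 KO (4.22 ± 0.67 (SE), adjusted p = 0.000139). Rsad2, the antiviral protein viperin, was at 0, 0 and 0 CPM in WT, 8.58, 15.1 and 8.65 CPM in DGCR8 KO and 0.423, 0.400, 0.811 and 0.967 CPM in DDX6 KO. Its DDX6 KO libraries held 1, 1, 2 and 3 counts, at or below the floor, and lay above WT because WT held no read. The test of DDX6 KO alone against WT gave a log2 change of 2.13 with an adjusted p of 0.0522. Zbp1, a sensor of Z-form nucleic acids, and Oas1a, an oligoadenylate synthetase, were called higher (log2 changes 2.98 and 1.42) but overlapped WT in DDX6 KO. Ddx58, which encodes the RNA sensor RIG-I, was at 19.6, 15.8 and 33.8 CPM in WT, 87.5, 50.3 and 95.2 CPM in DGCR8 KO and 34.7, 28.8, 31.2 and 27.4 CPM in DDX6 KO and likewise overlapped. The interferon receptor subunit Ifnar1 (0.48, adjusted p = 0.0402) and Stat2 (-0.02, adjusted p = 0.947) stayed under the fold threshold, and Trim25 had a change of -0.31, adjusted p = 0.0361. Without WT replicate 2 the call of Oas1a was lost (log2 change 0.83).

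MHC class I and antigen presentation genes had 8 tested members, of which 5 were called higher, 0 lower, and 2 were shared. B2m, the light chain of class I molecules, was at 14.2, 14.3 and 10.7 CPM in WT, 29.2, 25.7 and 20.95 CPM in DGCR8 KO and 44.0, 42.0, 34.9 and 35.8 CPM in DDX6 KO (1.32 ± 0.20 (SE), adjusted p = 8.88e-05). Tapbp, tapasin, which helps load peptides on class I, was at 30.5, 23.6 and 26.4 CPM in WT, 165, 144 and 212 CPM in DGCR8 KO and 53.3, 42.8, 58.4 and 49.6 CPM in DDX6 KO (1.81 ± 0.17 (SE), adjusted p = 4.69e-07). B2m was higher in DDX6 KO and Tapbp in DGCR8 KO, with log2 differences, DGCR8 KO minus DDX6 KO, of -0.61 ± 0.17, adjusted p = 0.00942 and of 1.75 ± 0.14, adjusted p = 4.26e-08. Psmb8, an immunoproteasome subunit, was at 0, 0 and 0 CPM in WT, 6.86, 7.94 and 4.55 CPM in DGCR8 KO and 0, 0.400, 0.811 and 1.29 CPM in DDX6 KO, near the floor throughout DDX6 KO and thus overlapping. H2-M3 was called at low level (0.907 ± 1.57 CPM in WT (SD, n = 3), 2.57 ± 1.38 in DGCR8 KO (n = 3) and 2.96 ± 0.919 in DDX6 KO (n = 4)). The classical heavy chains H2-K1 (0.40, adjusted p = 0.214) and H2-D1 (0.69, adjusted p = 0.0183) stayed under the fold threshold. These heavy chain genes are near-identical paralogues, so the division of reads between them is uncertain. The call of H2-M3 rested on 5, 0 and 0 counts in WT and was lost under edgeR and DESeq2. It was also lost without WT replicate 2 (log2 change 2.4) or WT replicate 3 (1.92).

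**Figure D3:**
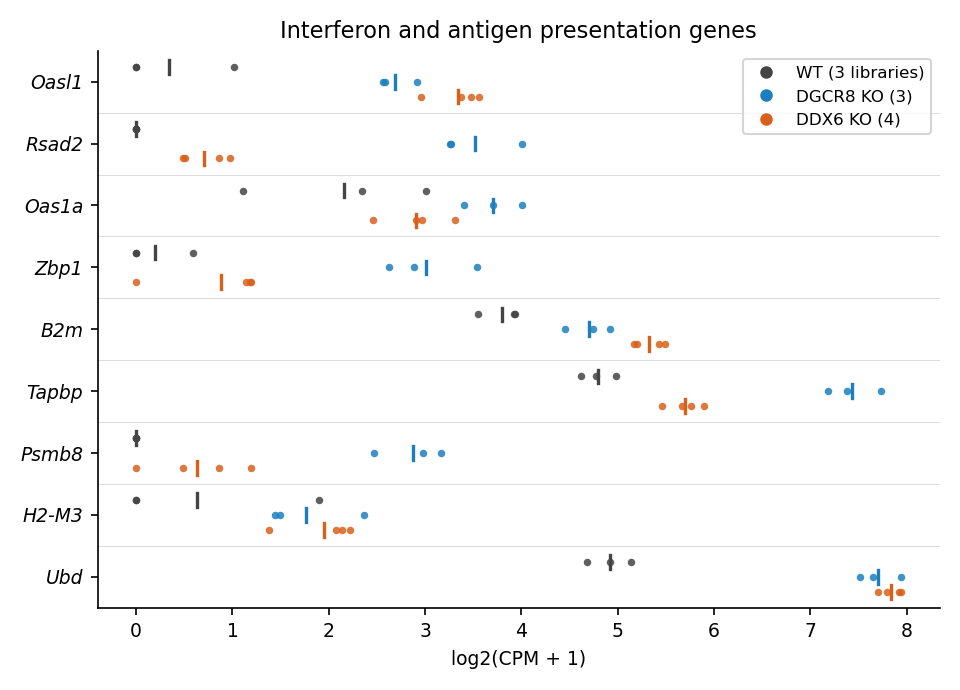
Level of 9 interferon and antigen presentation genes in each library, as log2(CPM + 1), with group means as vertical ticks. Oasl1, B2m, Tapbp and Ubd lie above WT in all 7 knockout libraries, and Psmb8, Zbp1 and Oas1a overlap WT in DDX6 KO.

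Ribosomal protein genes were lower by small amounts. Of 52 cytosolic ribosomal protein genes tested, 0 passed the call with its fold threshold, whereas 38 were lower and 0 higher by the adjusted p-value alone. In all, 26 of the 52 (50.0%) were below WT in all 7 knockout libraries and 0 were above. Their median log2 change was -0.46. Because no member reached the fold threshold, no member is among the shared genes. Rplp0, the stalk protein of the large subunit, was at 804, 867 and 889.5 CPM in WT, 613, 509.6 and 577 CPM in DGCR8 KO and 454, 556, 462 and 545 CPM in DDX6 KO (-0.68 ± 0.09 (SE), adjusted p = 1.26e-05). Rps3, a protein of the small subunit, was at 2973, 3086 and 3234 CPM in WT, 2460.5, 1988 and 2506 CPM in DGCR8 KO and 1564, 1868, 1646 and 1654 CPM in DDX6 KO (-0.66 ± 0.08 (SE), adjusted p = 5.73e-06). The library medians of the list were -0.04 to 0.06 in WT, -0.40 to -0.31 in DGCR8 KO and -0.68 to -0.37 in DDX6 KO on the log2 scale. Under scaling by total counts the median was -0.39 and 23 members were below WT in every knockout library. Ribosomal protein genes have many near-identical pseudogene copies, and only uniquely mapped reads were counted, so single members are uncertain. Rpl39l, a paralogue of Rpl39 outside the list, was shared lower, at 252, 253 and 312 CPM in WT, 94.4, 73.3 and 79.2 CPM in DGCR8 KO and 59.2, 46.4, 57.2 and 46.4 CPM in DDX6 KO (-2.06 ± 0.11 (SE), adjusted p = 6.15e-10). It is named here after its values were seen.

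Several neighbouring functions also had members separated below WT and 0 above, at shares that differed. Of 29 translation initiation and elongation factors, 18 were lower and 0 higher by adjusted p-value alone, 12 (41.4%) were separated below WT, and the median was -0.33. Eif2s2, the beta subunit of initiation factor eIF2, had a change of -0.92, adjusted p = 1.29e-07. Of 16 aminoacyl-tRNA synthetases 5 were separated below WT (31.2%), of 34 ribosome biogenesis genes 7 (20.6%), and of 27 proteasome subunits 7 (25.9%), with 0 above WT in each. Scaling by total counts left 4 ribosome biogenesis genes below. Ncl, the abundant nucleolar protein nucleolin, was at 8463, 8844 and 9107 CPM in WT, 6667, 6702 and 7669.8 CPM in DGCR8 KO and 6155, 6402, 5924 and 6863 CPM in DDX6 KO (-0.41 ± 0.06 (SE), adjusted p = 0.000102). Replication licensing and origin firing had 20 tested members, of which 11 were separated below WT and 0 above, again with 0 past the fold threshold. Mcm3, a subunit of the replicative helicase, was at 927, 956 and 1072 CPM in WT, 741, 823 and 862 CPM in DGCR8 KO and 562, 591, 529 and 608 CPM in DDX6 KO (-0.54 ± 0.08 (SE), adjusted p = 5.74e-05), and Rrm2, the small subunit of ribonucleotide reductase, came nearest to the fold threshold at -0.97, adjusted p = 4.31e-06. Cyclins, CDKs and E2F factors, with 19 tested, went both ways, with 4 separated above and 5 below, or 5 and 2 when scaled by total counts. Cdk6, a G1 kinase, was the shared member, at 101, 76.1 and 93.0 CPM in WT, 344, 257 and 292 CPM in DGCR8 KO and 226, 202, 227 and 179 CPM in DDX6 KO (1.47 ± 0.13 (SE), adjusted p = 1.53e-07).

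**Figure D4:**
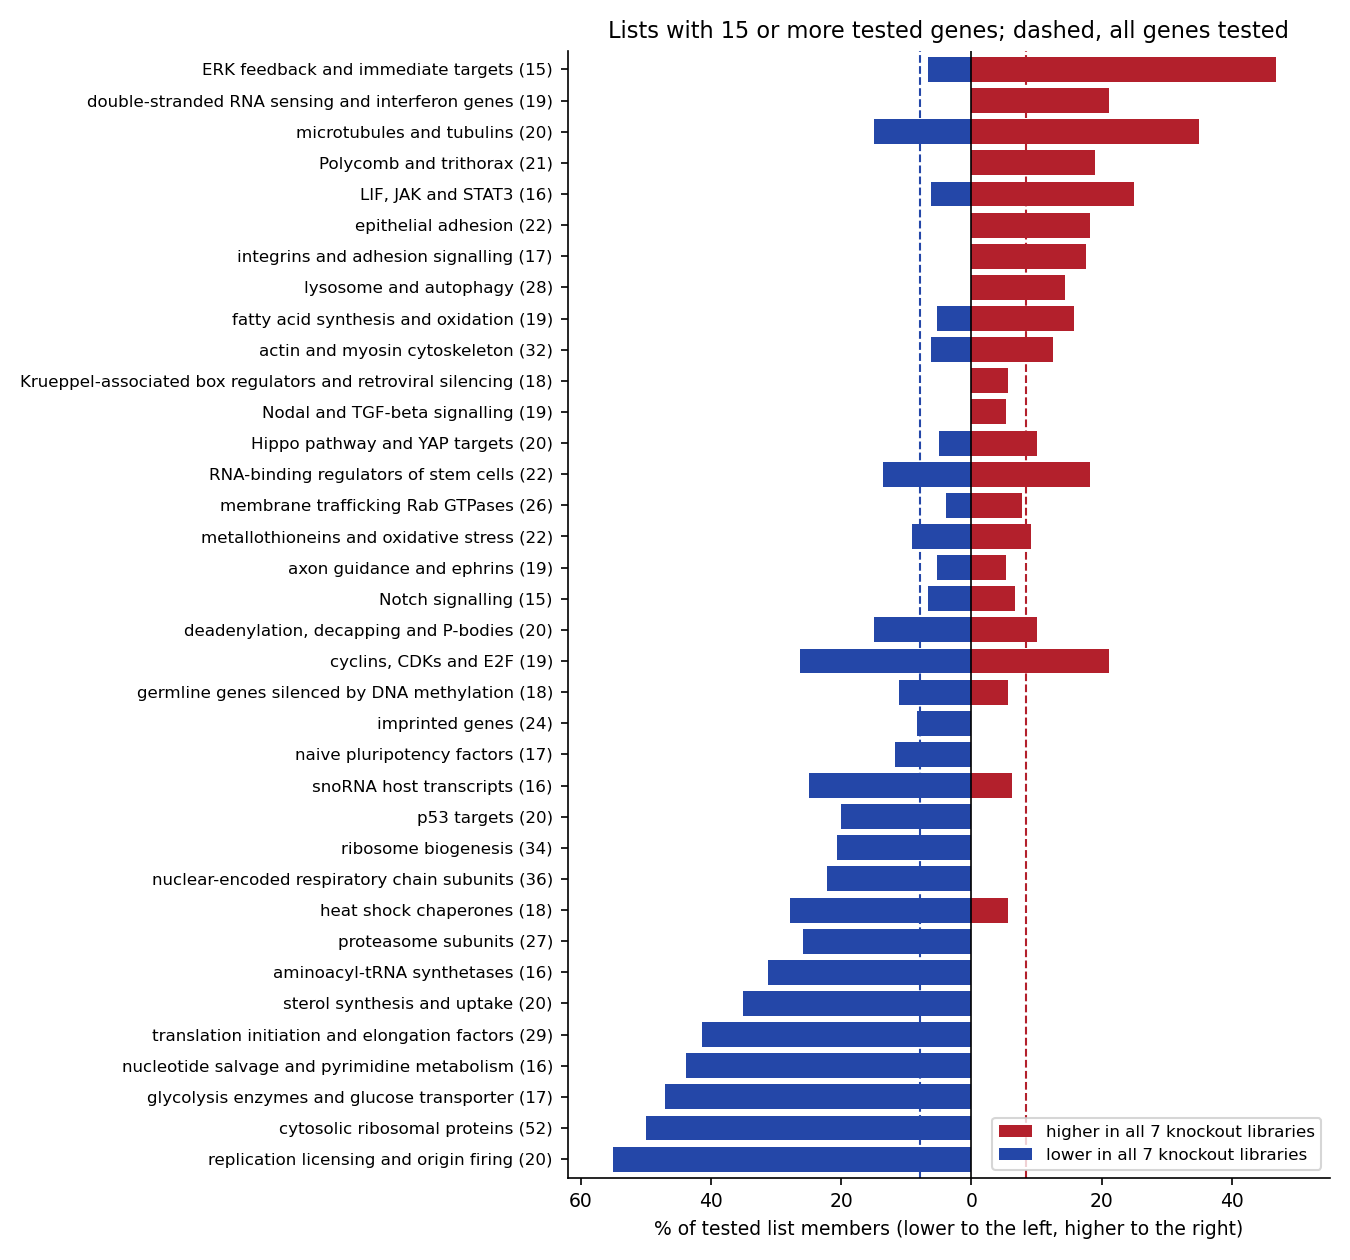
Percentage of tested members of each list with at least 15 tested genes that lay above (red, right) or below (blue, left) WT in all 7 knockout libraries, with the number tested in parentheses. Dashed lines mark 8.33% above and 7.92% below, the background over all genes tested, and the lists at the bottom, such as replication licensing (11 of 20 below) and ribosomal proteins (50.0% below), have no member above WT.

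Glycolysis genes were separated below WT more often than above it. Of 17 glycolysis and glucose transport genes, 3 were called lower and 0 higher, 8 (47.1%) were separated below WT and 0 above, and the median was -0.54. Aldoa, the aldolase of glycolysis, was at 757, 707 and 778 CPM in WT, 398, 308 and 447 CPM in DGCR8 KO and 346, 349, 376 and 345 CPM in DDX6 KO (-1.03 ± 0.09 (SE), adjusted p = 2.71e-07). Pfkp, a phosphofructokinase, was at 192, 173 and 224 CPM in WT, 101, 76.4 and 151 CPM in DGCR8 KO and 80.8, 82.1, 83.1 and 86.7 CPM in DDX6 KO (-1.08 ± 0.14 (SE), adjusted p = 1.97e-05). Slc16a3, a lactate exporter, was at 127, 88.8 and 122 CPM in WT, 55.6, 25.3 and 51.0 CPM in DGCR8 KO and 52.9, 54.1, 82.7 and 53.2 CPM in DDX6 KO (-1.16 ± 0.18 (SE), adjusted p = 0.000144). Lactate dehydrogenase Ldha (-0.65, adjusted p = 8.55e-05) and the glucose transporter Slc2a1 (-0.58, adjusted p = 0.000735) were separated without reaching the fold threshold. Pdk1, which restrains entry of pyruvate into mitochondria, had a change of 0.52, adjusted p = 0.00455. Leaving out DGCR8 KO replicate 2 ended the calls of Aldoa (log2 change -0.96), Slc16a3 (-0.98) and Pfkp (-0.97), and Pfkp was also lost without WT replicate 3 (-0.97). Scaling by total counts ended the call of Aldoa as well (-0.96).

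In serine, glycine and one-carbon metabolism 4 of 14 tested members were separated below WT, and Gldc was the shared gene. Phgdh, the enzyme that opens serine synthesis, was called lower but overlapped WT in DDX6 KO, at 14.2, 17.4 and 17.8 CPM in WT, 6.52, 4.16 and 4.55 CPM in DGCR8 KO and 14.8, 14.4, 11.4 and 10.3 CPM in DDX6 KO. Of 16 genes of nucleotide salvage and pyrimidine metabolism 7 (43.8%) were separated below WT and 0 above, and Upp1 was the shared member. In sterol synthesis and uptake 7 of 20 (35.0%) were separated below WT, 0 were called, and the median was -0.38. In fatty acid synthesis and oxidation 3 of 19 were separated above WT and 1 below (0 below when scaled by total counts). Scd1, a fatty acid desaturase, was at 122, 151 and 104 CPM in WT, 18.5, 25.3 and 17.8 CPM in DGCR8 KO and 90.1, 95.3, 75.8 and 75.1 CPM in DDX6 KO (-1.57 ± 0.14 (SE), adjusted p = 3.26e-07). It lay further from WT in DGCR8 KO than in DDX6 KO, with a log2 difference between the knockouts of -2.02 ± 0.20, adjusted p = 4.19e-07. Of 7 mitochondrially encoded genes tested 0 were separated, and their library medians were -0.02 to 0.00 in WT, 0.04 to 0.48 in DGCR8 KO and -0.67 to -0.54 in DDX6 KO. The call of Phgdh was lost without WT replicate 3, DGCR8 KO replicate 2 or the second library of DDX6 clone 2 (log2 change -0.998 to -0.986).

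**Figure D5:**
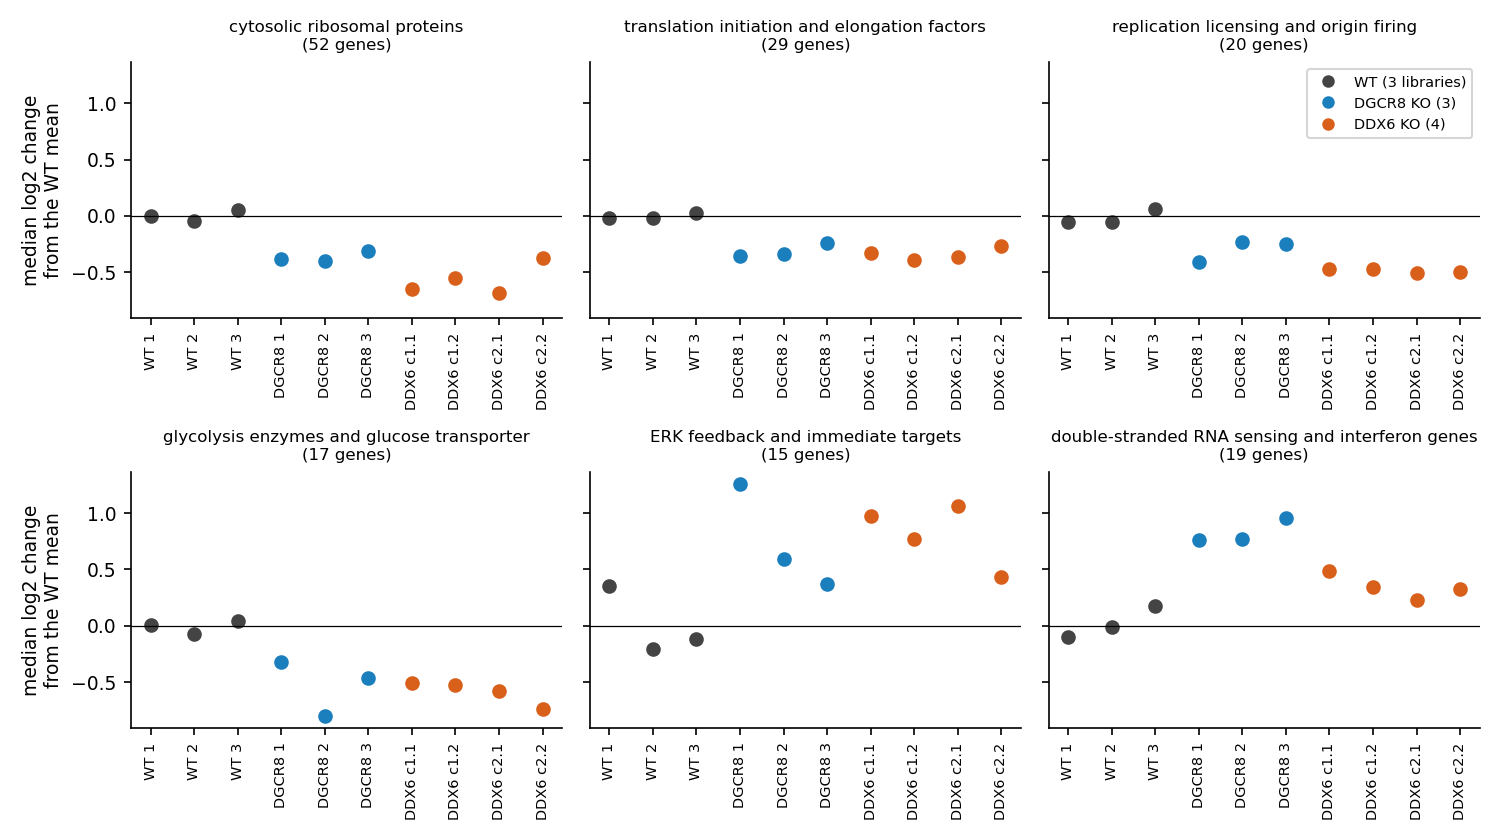
Median log2 change from the WT mean over the tested members of 6 lists (vertical) in each library (horizontal). The 6 lists were chosen after their values were seen. In the ribosomal protein, translation factor, replication and glycolysis panels all 7 knockout libraries lie below the WT libraries, and in the interferon panel all 7 lie above.

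The effector proteins of miRNA silencing included 2 shared higher genes. Argonaute and TNRC6 genes, which form the silencing complex itself, had 6 tested members, of which 2 were called higher, 0 lower, and 3 were separated above WT. Tnrc6a, a GW182 scaffold that joins Argonaute to the deadenylases, was at 159, 133 and 126 CPM in WT, 440.3, 484 and 416 CPM in DGCR8 KO and 345, 329, 335 and 319 CPM in DDX6 KO (1.49 ± 0.10 (SE), adjusted p = 4.15e-09). Its relative Tnrc6b was at 69.7, 66.8 and 57.7 CPM in WT, 186, 143 and 160.3 CPM in DGCR8 KO and 135, 139, 155 and 149 CPM in DDX6 KO (1.26 ± 0.12 (SE), adjusted p = 4.09e-07). Ago3, an Argonaute, was at 29.4, 27.4 and 37.4 CPM in WT, 51.8, 48.8 and 48.3 CPM in DGCR8 KO and 52.0, 52.9, 52.3 and 49.6 CPM in DDX6 KO and was separated with a log2 change of 0.66, adjusted p = 0.00126. Ago1 was at 96.9, 80.0 and 83.4 CPM in WT, 213, 205 and 192 CPM in DGCR8 KO and 83.4, 84.1, 95.7 and 69.6 CPM in DDX6 KO, higher in DGCR8 KO and overlapping WT in DDX6 KO, and Ago2 had a change of -0.24, adjusted p = 0.0359. Cnot6l, a catalytic subunit of CCR4-NOT, was the shared member among 20 genes of deadenylation, decapping and P-bodies, at 64.2, 60.3 and 47.0 CPM in WT, 139, 171 and 118 CPM in DGCR8 KO and 98.2, 101, 99.3 and 90.9 CPM in DDX6 KO (1.08 ± 0.14 (SE), adjusted p = 1.30e-05). In that list 2 members were separated above and 3 below WT (1 below when scaled by total counts). Without WT replicate 3, Cnot6l was no longer called (log2 change 0.91).

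Among 10 genes of miRNA processing and export, Lin28b, the paralogue of Lin28a, rose, at 9.80, 14.3 and 10.9 CPM in WT, 54.2, 50.7 and 46.9 CPM in DGCR8 KO and 31.3, 29.2, 33.2 and 31.9 CPM in DDX6 KO (1.77 ± 0.19 (SE), adjusted p = 1.94e-06). The paralogues thus moved in opposite directions in every knockout library. Hmga2, a chromatin protein known as a let-7 target, was shared lower, at 93.1, 64.5 and 89.7 CPM in WT, 55.9, 35.5 and 44.6 CPM in DGCR8 KO and 33.0, 42.0, 36.9 and 35.1 CPM in DDX6 KO (-1.001 ± 0.15 (SE), adjusted p = 6.33e-05). Primary miRNA transcripts and hosts had 5 tested members. Mir22hg was shared higher, at 4.90, 5.41 and 3.81 CPM in WT, 22.3, 10.96 and 15.03 CPM in DGCR8 KO and 17.3, 11.6, 14.2 and 9.35 CPM in DDX6 KO (1.602 ± 0.35 (SE), adjusted p = 0.0019). Mir17hg was called higher on the strength of DGCR8 KO, at 17.4, 14.3 and 17.8 CPM in WT, 86.8, 115 and 85.2 CPM in DGCR8 KO and 14.4, 14.01, 12.97 and 11.9 CPM in DDX6 KO, and no DDX6 KO library exceeded the highest WT library. Hmga2 lay at the fold threshold, lost its call under 13 of 26 alternatives and was not called without WT replicate 1 or 3, DGCR8 KO replicate 2 or 3, or 1 library of either DDX6 clone (-0.999 to -0.91), and Mir17hg was not called without WT replicate 2 (0.998).

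Embryonic stem cells express the ESCC family of miRNAs, from the mir-290 and mir-302 clusters. They are shown because their seed (bases 2 to 8, in capitals) is what the matches counted next pair with. The seed is AAGUGCU in 5 of the 6, and miR-290a-3p differs from it in the last base. The family member miR-291b-3p is not printed, and its seed also differs from AAGUGCU in the last base. Sequences and positions are those of RefSeq on GRCm38.p6. The listed members lie at chr7:3218674-3218697, chr7:3218968-3218989, chr7:3220691-3220712, chr7:3220815-3220837, chr3:127545275-127545297 and chr3:127545665-127545687, all on the plus strand.
miR-290a-3p: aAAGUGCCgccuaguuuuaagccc
miR-291a-3p: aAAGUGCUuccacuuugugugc
miR-294-3p: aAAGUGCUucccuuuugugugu
miR-295-3p: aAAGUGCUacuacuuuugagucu
miR-302b-3p: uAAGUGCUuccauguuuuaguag
miR-302d-3p: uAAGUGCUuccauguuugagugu

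Matches were counted in the longest annotated 3′ UTR among the coding transcripts of each gene. A match was the 7-base site AGCACTT (pairing with AAGUGCU) or GCACTTA (pairing with AAGUGC opposite a final A), which overlap in the 8-base site AGCACTTA. Only the sense strand was searched. Of 359 shared higher genes with a 3′ UTR, 121 (33.7%) held a match, against 2140 of 10004 (21.4%) over all genes tested and 16 of 156 (10.3%) among shared lower genes. The 8-base site was present in 29 shared higher genes (8.08%), 378 of all genes (3.78%) and 0 of the shared lower genes. At least 2 matches were found in 44 shared higher genes (12.3%), 497 of all genes (4.97%) and 1 shared lower gene.

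The 3′ UTRs themselves differed in length, with medians of 1772 bases in shared higher, 1205 bases in all and 830.5 bases in shared lower genes. Within the class of 3000 bases or more, 69 of 107 shared higher genes (64.5%) and 833 of 1633 of all genes (51.0%) held a match. From 1500 bases up to that length these were 35.2% and 29.3%, and from 500 up to 1500 bases 18.2% and 13.9%. Under 500 bases 0 of 51 shared higher genes held a match, and 3.66% of all genes did. A match is a description of the sequence and does not show that a miRNA binds there.

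The 8-base sites of 5 shared higher genes with large changes and a level of at least 10 CPM are printed. These genes were picked from only a part of those with such a site, so their changes need not be the largest. Each site is given with 11 flanking bases on each side (GRCm38, transcript strand, the site in capitals).
Tmem64, chr4:15284458-15284487, plus strand: tgtttgctaacAGCACTTAggacttagcat
Syde1, chr10:78584784-78584813, minus strand: ttgaaaaactgAGCACTTAactcctcccct
Phc3, chr3:30904818-30904847, minus strand: tcttattactaAGCACTTAagaactttctt
Zbtb37, chr1:161017578-161017607, minus strand: aagaaacttggAGCACTTAtcaacactcca
Nfib, chr4:82296536-82296565, minus strand: accagcattgcAGCACTTAcagtcactaat

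Tmem64, a transmembrane protein, was at 40.3, 47.1 and 33.3 CPM in WT, 168, 148 and 137 CPM in DGCR8 KO and 165, 127, 182 and 126 CPM in DDX6 KO (1.93 ± 0.16 (SE), adjusted p = 1.36e-07). Phc3, a Polycomb subunit, was at 24.5, 43.6 and 32.3 CPM in WT, 188, 149 and 153 CPM in DGCR8 KO and 89.7, 86.9, 89.2 and 61.2 CPM in DDX6 KO (1.78 ± 0.18 (SE), adjusted p = 1.03e-06), and its 3′ UTR held 6 matches. Nfib, a nuclear factor I transcription factor, was at 57.2, 33.2 and 50.6 CPM in WT, 137, 121 and 109 CPM in DGCR8 KO and 147, 135, 151 and 149 CPM in DDX6 KO (1.55 ± 0.14 (SE), adjusted p = 4.09e-07), with 2 matches. Separation from WT was required of all 3 as shared genes. Nfib alone of them was higher in DDX6 KO than in DGCR8 KO by mean level. Syde1, a GTPase-activating protein, and the zinc finger protein Zbtb37 had log2 changes of 1.80 and 1.62.

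Some cytoskeletal and adhesion genes were among the higher ones. The 32 actin and myosin genes were mixed, with 8 higher and 7 lower by adjusted p-value alone. Of these, 4 (12.5%) were separated above WT and 2 below. Of 20 microtubule and tubulin genes 7 were separated above WT (35.0%) and 3 below. Dpysl3, a microtubule-binding protein of growing axons, was at 75.7, 57.2 and 57.2 CPM in WT, 487, 356 and 329.7 CPM in DGCR8 KO and 188, 145, 181 and 172 CPM in DDX6 KO (2.06 ± 0.15 (SE), adjusted p = 2.08e-08). Map1b, a neuronal microtubule-associated protein, was at 64.2, 48.7 and 56.7 CPM in WT, 271, 226 and 261 CPM in DGCR8 KO and 127, 129, 128 and 158 CPM in DDX6 KO (1.72 ± 0.13 (SE), adjusted p = 2.19e-08). The tubulins split, with Tubb2a at 109, 87.7 and 99.9 CPM in WT, 219.7, 206 and 179 CPM in DGCR8 KO and 365, 247, 315 and 271 CPM in DDX6 KO (1.31 ± 0.13 (SE), adjusted p = 7.35e-07) and Tuba1c at -0.66, adjusted p = 5.60e-05. Tubulin genes share long stretches of sequence, although their 3′ ends differ more. Of 32 actin and myosin genes 4 were called higher and 0 lower, and Tagln2, an actin-binding protein, was shared, at 348, 360.4 and 322 CPM in WT, 857, 464 and 746 CPM in DGCR8 KO and 818, 781, 895 and 759 CPM in DDX6 KO (1.10 ± 0.14 (SE), adjusted p = 1.24e-05).

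Integrins and adhesion signalling had 17 tested members, 4 called higher and 0 lower, 3 separated above WT. Itga9 was at 7.62, 6.57 and 4.83 CPM in WT, 35.4, 23.4 and 26.4 CPM in DGCR8 KO and 27.1, 23.6, 23.9 and 29.003 CPM in DDX6 KO (2.17 ± 0.27 (SE), adjusted p = 1.08e-05), and Itga5, the fibronectin receptor subunit, at 11.98, 6.57 and 6.86 CPM in WT, 25.4, 21.2 and 18.2 CPM in DGCR8 KO and 21.6, 13.6, 16.2 and 23.5 CPM in DDX6 KO (1.36 ± 0.27 (SE), adjusted p = 0.000849). Among 22 genes of epithelial adhesion 3 were called higher and 1 lower, and 4 were separated above WT. Grhl2, a transcription factor of epithelia, was at 1.09, 1.55 and 1.27 CPM in WT, 18.5, 20.4 and 17.3 CPM in DGCR8 KO and 8.89, 12.4, 9.73 and 4.83 CPM in DDX6 KO (3.09 ± 0.51 (SE), adjusted p = 0.000186). Krt8, a simple-epithelial keratin, was at 5.99, 3.48 and 3.05 CPM in WT, 13.04, 7.94 and 9.56 CPM in DGCR8 KO and 25.4, 12.4, 15.8 and 10.96 CPM in DDX6 KO (1.68 ± 0.39 (SE), adjusted p = 0.00294), and Esrp1, an epithelial splicing regulator, had a change of 1.78, adjusted p = 0.0208 at no more than 6.81 CPM. The mesenchymal list, with 10 tested, had 2 called higher, among them the metalloproteinase Mmp14, at 14.2, 12.4 and 9.91 CPM in WT, 27.5, 31.0 and 31.0 CPM in DGCR8 KO and 45.3, 50.1, 41.8 and 52.5 CPM in DDX6 KO (1.68 ± 0.19 (SE), adjusted p = 4.82e-06). Esrp1 was not called without WT replicate 3 (log2 change 1.21), and Cldn6 not under edgeR or without DGCR8 KO replicate 1.

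Other lists of signalling and cell function held few shared genes. In the LIF, JAK and STAT3 list 4 of 16 were separated above WT and 1 below, and Jak2 was at 17.4, 18.5 and 11.4 CPM in WT, 51.5, 45.0 and 35.1 CPM in DGCR8 KO and 29.6, 25.6, 26.8 and 27.7 CPM in DDX6 KO (1.23 ± 0.20 (SE), adjusted p = 0.000177). In the Wnt list Fzd7, a receptor, was at 23.4, 9.66 and 12.96 CPM in WT, 38.4, 83.2 and 31.0 CPM in DGCR8 KO and 47.4, 38.8, 65.7 and 32.2 CPM in DDX6 KO (1.73 ± 0.35 (SE), adjusted p = 0.00107), and Tcf7l2, a nuclear effector, changed by 1.04, adjusted p = 5.20e-05. The circadian clock list had 2 of 10 members shared higher, Clock at 51.2, 42.5 and 45.0 CPM in WT, 129, 136 and 116 CPM in DGCR8 KO and 82.1, 78.5, 87.2 and 112 CPM in DDX6 KO (1.22 ± 0.14 (SE), adjusted p = 3.58e-06) and Nr1d2 at 25.6, 19.3 and 18.3 CPM in WT, 58.3, 68.8 and 62.4 CPM in DGCR8 KO and 54.2, 48.0, 64.5 and 54.1 CPM in DDX6 KO (1.53 ± 0.16 (SE), adjusted p = 2.12e-06). In the Nodal and TGF-beta list 5 of 19 were called higher but 0 were shared, since receptors and ligands such as Tgfbr2 (2.60, adjusted p = 0.0107) and Inhbb (1.77, adjusted p = 0.0093) overlapped WT in DGCR8 KO. In the lysosome and autophagy list 4 of 28 were separated above WT, and Lamp2, a lysosomal membrane protein, was at 117, 150.3 and 148 CPM in WT, 652, 647 and 606 CPM in DGCR8 KO and 254, 239, 194 and 186 CPM in DDX6 KO (1.41 ± 0.11 (SE), adjusted p = 8.32e-08). Leaving out WT replicate 3 ended the calls of Jak2 (log2 change 0.93), Tgfbr2 (1.86) and Tcf7l2 (0.99), the last of which was also lost without DGCR8 KO replicate 2 or the second library of DDX6 clone 1.

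Markers of embryonic stem cells, the labelled cell type, were present in all groups. Of 21 naive pluripotency factors listed, 4 lie on chromosomes 6 and 8 and were left out, so the list does not cover them. Of the 17 tested 0 were called, 2 were separated below WT and 0 above. By the adjusted p-value alone 4 were lower and 0 higher. The summed level of the 17 was 5875 to 6612 in WT, 5250.1 to 5798 in DGCR8 KO and 5286 to 5995 in DDX6 KO CPM. Pou5f1, at 57.7, 57.6 and 68.4 CPM in WT, 61.8, 59.0 and 82.4 CPM in DGCR8 KO and 51.2, 58.9, 61.2 and 67.0 CPM in DDX6 KO, had a log2 change of 0.03, adjusted p = 0.902. Esrrb was at 341, 370.4 and 465 CPM in WT, 373, 364 and 429 CPM in DGCR8 KO and 451, 414, 377 and 436 CPM in DDX6 KO (0.04, adjusted p = 0.82), and Sox2 had a change of 0.19, adjusted p = 0.17. Sall4, a zinc finger factor, and Nr5a2, a nuclear receptor, were the separated members, at -0.82, adjusted p = 3.06e-05 and -0.71, adjusted p = 2.24e-05.

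In the formative and primed list 4 of 14 were called lower, 1 higher, and 3 were shared lower. Dnmt3b, a DNA methyltransferase, was at 220.5, 162 and 279 CPM in WT, 129, 97.2 and 148 CPM in DGCR8 KO and 102, 78.9, 90.4 and 77.0 CPM in DDX6 KO (-1.08 ± 0.15 (SE), adjusted p = 3.69e-05). Tcf15, a basic helix-loop-helix factor, was at 27.2, 23.6 and 29.2 CPM in WT, 7.89, 2.65 and 12.3 CPM in DGCR8 KO and 5.50, 10.4, 8.51 and 9.99 CPM in DDX6 KO (-1.86 ± 0.26 (SE), adjusted p = 4.59e-05). Etv5, given above, was the third. Lef1 was called lower through DDX6 KO, at 21.2, 10.8 and 16.8 CPM in WT, 32.3, 10.6 and 22.8 CPM in DGCR8 KO and 0.423, 1.20, 0.405 and 0 CPM in DDX6 KO, and overlapped WT in DGCR8 KO. Mycl, a MYC family member, was the shared gene of the MYC list, at 27.8, 31.7 and 23.1 CPM in WT, 7.21, 8.70 and 5.01 CPM in DGCR8 KO and 9.31, 7.21, 11.8 and 8.06 CPM in DDX6 KO (-1.74 ± 0.21 (SE), adjusted p = 6.67e-06). Dnmt3b was not called without WT replicate 3 (log2 change -0.87) or DGCR8 KO replicate 2 (-0.997).

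Markers of other cell types were counted in the same way. Of 5 primitive endoderm markers tested, 1 was called lower (Lama1, -1.31, adjusted p = 0.0331) and 0 were separated, with summed levels of 1144 to 1313 in WT, 1147 to 1259.9 in DGCR8 KO and 1313 to 1486 in DDX6 KO CPM. Of 7 trophectoderm markers Krt8 was called higher, and the summed level was 151 to 192 in WT, 217 to 251 in DGCR8 KO and 116 to 162 in DDX6 KO CPM. Of 9 neural precursor markers Nes, the intermediate filament nestin, was shared lower, at 29.9, 50.6 and 36.3 CPM in WT, 15.1, 10.96 and 18.2 CPM in DGCR8 KO and 22.0, 21.2, 15.8 and 24.8 CPM in DDX6 KO (-1.15 ± 0.19 (SE), adjusted p = 0.00019), and the summed level was 779 to 888 in WT, 1195 to 1873 in DGCR8 KO and 562 to 661 in DDX6 KO CPM. Of 9 feeder fibroblast markers 1 was called (Fbn1, 1.83, adjusted p = 0.0141), 0 were separated, and the summed level was 725 to 810.0 in WT, 1044 to 1148 in DGCR8 KO and 403 to 428 in DDX6 KO CPM. Col1a1, a defining fibroblast gene, was at 2.18, 2.70 and 1.52 CPM in WT, 0.686, 0.756 and 0.455 CPM in DGCR8 KO and 8.04, 3.604, 3.24 and 3.87 CPM in DDX6 KO. The neural and fibroblast sums were highest in DGCR8 KO and lowest in DDX6 KO, so these sums did not move the same way in the knockouts. Sums are weighted to abundant members. The median log2 change of fibroblast markers per library was -0.29 to 0.21 in WT, -0.495 to 0.14 in DGCR8 KO and -0.42 to 0.18 in DDX6 KO. For trophectoderm markers it was -0.15 to 0.21, -0.51 to 0.15 and -0.54 to 0.20, and for neural markers -0.19 to 0.14, 0.75 to 1.13 and -0.74 to -0.41. Nes was not called without WT replicate 2 (log2 change -0.965), and Fbn1 not without WT replicate 3 (1.78). Lama1 lost its call under edgeR and DESeq2. It also lost it when any of 6 libraries was left out (-1.35 to -0.87).

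The list of 2-cell-like markers had 7 tested members, of which Tcstv1 and Arg2 were shared higher. Tcstv1 was at 0, 1.16 and 0.508 CPM in WT, 4.80, 1.51 and 1.37 CPM in DGCR8 KO and 2.96, 1.20, 4.46 and 3.54 CPM in DDX6 KO, and Arg2 was at 0.544, 0 and 0.508 CPM in WT, 1.03, 1.13 and 0.911 CPM in DGCR8 KO and 1.69, 3.20, 3.65 and 4.19 CPM in DDX6 KO. Both rest on few counts, with at most 3 per WT library, and Tcstv1 belongs to a family of near-identical copies. The summed level of these markers was 428 to 500.2 in WT, 378 to 456 in DGCR8 KO and 466 to 561 in DDX6 KO CPM. Their median log2 change per library was -0.27 to 0.20 in WT, -0.10 to 0.34 in DGCR8 KO and 1.141 to 2.05 in DDX6 KO. All DDX6 KO libraries lay above the others by that measure, whereas the sum was mostly Eif1a, a translation initiation factor, at 427, 494 and 477 CPM in WT, 372, 449.9 and 373 CPM in DGCR8 KO and 497, 443, 499.8 and 521 CPM in DDX6 KO. Germline genes silenced by DNA methylation had 18 tested members, with 5 called higher and 3 lower. Piwil2, a PIWI protein, was shared higher, at 8.71, 15.5 and 10.2 CPM in WT, 21.6, 24.2 and 19.1 CPM in DGCR8 KO and 58.4, 67.7, 61.6 and 48.7 CPM in DDX6 KO (1.65 ± 0.22 (SE), adjusted p = 2.62e-05), and Khdc3 and Rhox5 were shared lower. Xlr3a, at 22.9, 12.4 and 20.1 CPM in WT, 0, 0 and 0.455 CPM in DGCR8 KO and 32.6, 35.2, 33.6 and 43.5 CPM in DDX6 KO, moved in opposite directions in the knockouts. Arg2 was not called under DESeq2, nor without WT replicate 2 (log2 change 1.5) or 3 (2.33). Tcstv1 was not called without WT replicate 1 (1.63), WT replicate 3 (2.16) or DGCR8 KO replicate 1 (1.85).

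Small nucleolar RNA hosts had 16 tested members, of which 3 were shared lower. They were Snhg5 at 161, 158 and 191 CPM in WT, 84.1, 79.8 and 80.6 CPM in DGCR8 KO and 86.7, 68.5, 79.5 and 77.0 CPM in DDX6 KO (-1.10 ± 0.10 (SE), adjusted p = 4.06e-07), Snhg8 at 204, 245 and 168 CPM in WT, 90.3, 94.1 and 68.8 CPM in DGCR8 KO and 81.7, 87.7, 78.2 and 80.9 CPM in DDX6 KO (-1.27 ± 0.12 (SE), adjusted p = 4.44e-07) and Snhg18 at 12.5, 12.7 and 13.2 CPM in WT, 6.52, 7.94 and 6.38 CPM in DGCR8 KO and 3.39, 3.20, 3.24 and 1.61 CPM in DDX6 KO (-1.54 ± 0.25 (SE), adjusted p = 0.000152). Snhg18 was lower in DDX6 KO than in DGCR8 KO (log2 difference 1.32 ± 0.36, adjusted p = 0.00751). Of the lists not yet described, nuclear-encoded respiratory chain subunits had 8 of 36 separated below WT (22.2%), heat shock chaperones 5 of 18 (27.8%), p53 targets 4 of 20 and replication-dependent histones 3 of 11 (27.3%). Scaled by total counts, 3 of 36 respiratory chain genes and 1 of 11 histones were separated below WT. The p53 targets went both ways, with 2 called higher and 0 lower, and 4 higher and 5 lower by adjusted p-value alone. Polycomb and trithorax genes had 4 of 21 separated above WT, with 3 higher and 4 lower by adjusted p-value alone.

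The remaining shared genes of the lists came from transport, trafficking and imprinting. Slc40a1, the iron exporter ferroportin, was at 0, 0.386 and 0.508 CPM in WT, 3.43, 2.27 and 2.28 CPM in DGCR8 KO and 11.002, 7.61, 14.2 and 6.12 CPM in DDX6 KO (3.45 ± 0.72 (SE), adjusted p = 0.00132). Its WT libraries held at most 2 counts each, under the floor, so the size of the change is uncertain. Against the highest WT floor, 1.63 CPM, the mean was at least 1.63-fold higher in DGCR8 KO and at least 5.96-fold higher in DDX6 KO. Nrp2, a neuropilin receptor of semaphorins, was at 14.2, 10.4 and 10.2 CPM in WT, 59.4, 44.6 and 84.7 CPM in DGCR8 KO and 28.4, 22.8, 22.7 and 20.3 CPM in DDX6 KO (1.74 ± 0.26 (SE), adjusted p = 6.83e-05). Both were above WT in every knockout library, which was required of shared genes. Atf3, a stress-induced transcription factor, ranged from 1.16 to 3.81 CPM in WT and from 6.05 to 18.6 CPM in the knockouts. The Rab GTPases of vesicle transport went both ways, with Rab27a at 1.38, adjusted p = 5.26e-05, Rab8b at 1.18, adjusted p = 0.000239 and Rab38 at -1.03, adjusted p = 0.00139. Slc38a4, an imprinted amino acid transporter, was at 239.5, 218 and 218 CPM in WT, 79.6, 65.4 and 52.4 CPM in DGCR8 KO and 176, 186, 179 and 131 CPM in DDX6 KO (-1.10 ± 0.12 (SE), adjusted p = 3.39e-06). Myof, a membrane protein of the ferlin family, lay at the fold threshold (1.01, adjusted p = 7.73e-07). Leaving out WT replicate 1 ended the calls of Myof (0.91) and Rab38 (-0.92), DGCR8 KO replicate 1 that of Myof (0.995), and DGCR8 KO replicate 3 or the second library of either DDX6 clone that of Rab38 (-0.95 to -0.92).

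Shared genes were spread over all tested chromosomes. The share of tested genes that were shared higher ran from 1.84% on chromosome 11 to 5.90% on the X, and shared lower from 0.631% on chromosome 5 to 3.41% on chromosome 18. Of the 567 shared genes 76 lay in 33 runs of at least 2 neighbouring tested genes moving the same way. Next to each other on chromosome 7, from 104244457 to 104353362 (GRCm38), lay Trim34a, Trim12a and Trim12c, which are close paralogues whose reads may be divided among them. A run of 4 lower genes on chromosome 1, from 65061872 to 65186479, held Crygd, Crygc, D630023F18Rik and Idh1. The genes of these runs are named for their position.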

How the data were processed

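RNA from 3 WT, 3 DGCR8 KO and 4 DDX6 KO libraries was sequenced from 3′ ends with QuantSeq. Raw counts per gene were deposited by the authors, who trimmed reads with cutadapt 1.14, aligned them uniquely to mm10 with STAR 2.5.3a and counted sense reads over GENCODE M14 genes with featureCounts 1.5.3, rRNA genes excluded. The 92 ERCC spike-in entries and the 5589 genes on chromosomes 6 and 8 were dropped. Symbols and 3′ UTRs came from GENCODE M21 (GRCm38), which named 51274 of 51467 genes. Genes that reached 3 CPM in 3 or more libraries were scaled by TMM in edgeR 4.0.16 and fitted by voom in limma 3.58.1 (R 4.3.3) with a mean for each of 3 groups. The contrast was the average of both knockout means minus WT, two-sided, with Benjamini-Hochberg adjustment over all 10726 genes tested.

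Genes named are the targeted genes, the 15 largest shared increases and 15 largest decreases that averaged 10 CPM or more and have a named symbol, and from each list up to 3 shared genes and up to 2 called genes that overlapped WT, besides list members given with their values. Some called genes that overlapped WT are left out for length, and a few other genes are not reported here. The members and lists were chosen with earlier results of these data known. Alternatives comprised edgeR's quasi-likelihood test, DESeq2 1.42.0, other scalings, filters, models and thresholds, and leaving out libraries. The fit was tested on simulated data with 200 changed genes. Floors cover counting error only, since reads carried no molecular identifiers that the sources used here mention.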

Additional observations from a re-analysis of the deposited data

Results flagged for a closer look

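Of 29 genes with large shared increases and decreases, 19 differed between the knockouts by the test of that difference (limma, adjusted p under 0.05). Values are log2 differences, DGCR8 KO minus DDX6 KO. Among genes that rose, the difference was positive for Fras1 (3.34), Cds1 (3.25), Pdzrn4 (3.12), Anxa3 (2.45), Atxn1 (1.97), Msln (1.64), Adam23 (1.46), Foxd1 (1.2) and Ccdc141 (0.95), which rose further in DGCR8 KO. It was negative for Sh3bgrl (-1.51) and Spry4 (-0.72). Among genes that fell, Rhox5 (-3.13), Lin28a (-2.86) and Crxos (-1.49) were lower in DGCR8 KO. Gtsf1l (4.74), Rims1 (2.37), Upp1 (1.32), Spic (1.22) and Acaa2 (0.67) were lower in DDX6 KO.

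All 29 genes and both targeted genes were also examined for a DDX6 KO library far from the other 3 of its group. Of 31 groups of values 1 held such a library, and chance gives about 1 in 20. It was Atxn1, at 31.6 CPM in the second library of clone 2 and at 44.8 to 47.8 CPM in the other 3. This library lay above the highest WT library.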

How the results depend on the processing

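Counts of shared genes, 373 higher and 194 lower, and of genes called, 623 and 358, depended most on the threshold and on the model. With the adjusted p-value alone, 1733 and 1703 genes were called, and 808 and 802 were shared. A test against a log2 fold change of 1 (treat) called 52 and 48, of which 51 and 47 were shared. A fit with knockout and WT as the 2 groups, in which the gap between the knockouts enters the residual spread, called 255 and 170, and 241 of the higher genes were shared. With a filter of 10 CPM fewer genes were tested, 178 were called lower and 112 shared lower. Leaving out 1 library at a time gave 424 to 642 called higher, 314 to 351 called lower, 943 to 1238 and 902 to 1162 separated, and 344 to 434 and 189 to 216 shared. Fewer libraries make separation easier. The lowest count came without WT replicate 3, and 287 and 157 of the shared genes were also shared without it. A replicate block on the numbers in the labels gave 581 and 358 called and 361 and 188 shared, of which 350 and 180 were shared without it. Of the named genes 9 lost their call under the block, among them Fos (log2 change 0.74), Cnot6l (0.985), Hmga2 (-0.98), Aldoa (-0.99), Pfkp (-0.96), Dnmt3b (-0.98) and Lama1 (-0.63). Egr1 stayed called (2.76). Deviations of same-numbered libraries correlated at 0.14 to 0.28 between WT and DGCR8 KO and at -0.08 to 0.12 in pairs with DDX6 KO. Since not every pair was above 0.1 and no label says what a number marks, the block was kept as an alternative. Other counts stayed within 1.5 times, among them those of edgeR (378 and 190 shared) and DESeq2 (364 and 187).

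Of 118 named genes 58 lost their call in the fit of 2 groups, 81 under treat and 27 without WT replicate 3, and 0 changed direction under any of the 26 alternatives that gave a value. Of the ranked genes, 22 of 29 stayed called under every alternative but treat. Depth limits low genes most, since 3 counts were worth up to 1.63 CPM.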

Other observations

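Beyond the lists, shared genes included further groups, which were put together after their values were seen and are given as values only. Genes of innate immunity were among the shared higher ones. Aim2, a sensor of cytosolic DNA, was at 47.9, 49.4 and 47.3 CPM in WT, 138, 159.9 and 138 CPM in DGCR8 KO and 157, 151, 168 and 148 CPM in DDX6 KO (1.64 ± 0.11 (SE), adjusted p = 1.26e-08), and its knockout libraries lay close together in both genotypes. Il2rg, the common gamma chain of cytokine receptors, was at 0.544, 1.16 and 0.762 CPM in WT, 12.4, 8.32 and 6.83 CPM in DGCR8 KO and 9.73, 7.21, 7.70 and 8.38 CPM in DDX6 KO. Its WT levels were at or under the floor of 3 counts, and all knockout libraries were above it. Nlrc4, an inflammasome protein, was at 0, 0.386 and 0.508 CPM in WT, 8.58, 16.6 and 14.6 CPM in DGCR8 KO and 1.69, 3.20, 2.43 and 4.51 CPM in DDX6 KO, and was higher in DGCR8 KO than in DDX6 KO (log2 difference 2.05 ± 0.39, adjusted p = 0.000384). Its WT libraries held at most 2 counts each. Nmi, an interferon-induced protein, ranged from 2.72 to 6.35 CPM in WT, 12.8 to 18.05 CPM in DDX6 KO and 35.4 to 42.0 CPM in DGCR8 KO. Parp14 and Parp10, ADP-ribosyltransferases, had pooled log2 changes of 2.72 and 2.55. The GTPases Irgm1 and Irgm2 were shared higher too (3.49, adjusted p = 0.0198 and 3.58, adjusted p = 0.00853), although the last DDX6 KO library held Irgm1 at 0.967 CPM, which is 3 counts and thus at the floor. Irgm1 had at most 2 counts in each WT library.

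Genes of cilia and flagella formed another group among the shared higher genes, all at low level. Rsph1, of the radial spokes, was at 2.72, 4.25 and 4.07 CPM in WT, 12.01, 23.8 and 23.7 CPM in DGCR8 KO and 13.5, 10.4, 12.2 and 12.2 CPM in DDX6 KO (1.94 ± 0.37 (SE), adjusted p = 0.000711). Dnah10, an axonemal dynein heavy chain, had a WT range of 0.544 to 3.48 CPM and a knockout range of 5.80 to 19.7 CPM. For Ttc12, a factor of dynein arm assembly, these were 0.773 to 2.18 and 4.40 to 12.1 CPM. None overlapped. Sorl1, a sorting receptor that binds the amyloid precursor protein, was at 73.5, 89.6 and 86.7 CPM in WT, 287, 297 and 245 CPM in DGCR8 KO and 177, 196, 198 and 196 CPM in DDX6 KO (1.46 ± 0.11 (SE), adjusted p = 2.28e-08), App itself changed by 1.76, adjusted p = 0.000817, and Bace1, the protease that cleaves it, by 1.45, adjusted p = 7.39e-05. Nfia and Nfic, relatives of Nfib, were shared higher as well, with log2 changes of 2.01 and 1.02. Txnip, a thioredoxin-binding arrestin, was at 157, 199.7 and 121 CPM in WT, 432, 851 and 269.6 CPM in DGCR8 KO and 444, 523, 429.7 and 308 CPM in DDX6 KO (1.52 ± 0.26 (SE), adjusted p = 0.000253).

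Shared lower genes outside the lists included insulin-like growth factor binding proteins. Igfbp2 was at 795, 726 and 663 CPM in WT, 337, 304 and 236 CPM in DGCR8 KO and 234, 215, 266 and 144 CPM in DDX6 KO (-1.55 ± 0.13 (SE), adjusted p = 1.57e-07), and Igfbp4 and Igfbp5 changed by -1.20 and -1.75 at lower levels. Of 67 small nucleolar RNA genes tested, 5 were shared lower. Snora17 was at 19.6, 11.2 and 18.04 CPM in WT, 6.86, 2.27 and 4.10 CPM in DGCR8 KO and 6.35, 2.40, 7.30 and 4.51 CPM in DDX6 KO (-1.80 ± 0.31 (SE), adjusted p = 0.00028), and Snora78 ranged from 28.97 to 45.0 CPM in WT and from 2.65 to 26.1 CPM in the knockouts. The others were Snora31, Snora74a and Snord104, with log2 changes of -1.73, -1.73 and -1.19. Small nucleolar RNAs lie in introns of host transcripts and lack a poly(A) tail, so what the 3′-end reads at them stem from was not tested.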
